A study of Mus musculus with 12 samples.

Results

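The comparison described here is the effect of inhaled nicotine on the mouse thoracic aorta averaged over 2 genotypes, with attention to genes that had the same direction in both. All 12 RNA-seq libraries of the series entered 1 fit of 4 group means, and the contrast is the mean of nicotine minus air in wild-type (WT) mice and nicotine minus air in mice whose label says that the alpha7 nicotinic receptor is knocked out (KO). It sets 6 nicotine libraries against 6 air libraries. Of 14621 genes tested, 8742 had a log2 fold change of the same sign in both genotypes, which is 59.8%.

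All animals are given as strain C57BL/6J. From 5 months of age they were kept for 12 weeks in room air or in nicotine vapor, and aortas were taken at 8 months, cleaned of fat and frozen. On air were WT libraries 8, 9 and 10 and KO libraries 1, 2 and 7, and on nicotine WT libraries 6, 11 and 12 and KO libraries 3, 4 and 5. Values per library below follow this order within each group. The labels give no sex, no detail of the deleted allele and no statement that each library is a separate mouse, so p-values measure the spread between these libraries, part of which may be technical. SMART-Seq v4 libraries were made from total RNA of the whole vessel.

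Nicotine opens nicotinic acetylcholine receptors, ion channels found on autonomic nerve cells, on the adrenal cells that release catecholamines and on several other cell types. The alpha7 subunit, encoded by Chrna7, forms channels on its own that let calcium through. The wall of the aorta is built mainly of contractile smooth muscle, with an inner endothelium and an outer adventitia of fibroblasts, macrophages and nerves beside fat. Smooth muscle contracts when calcium activates myosin, and its contractile genes are driven by serum response factor, which binds a sequence called the CArG box, together with myocardin.

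Library totals ran from 10240031 to 12628323 counts, and 17995 to 19484 genes had a count. The smooth muscle markers were abundant in every library, with Myh11 between 10272 and 21756 CPM (the count scaled to library size with edgeR's TMM factors). Chrna7 itself was scarce, and its counts in the libraries labelled KO overlapped those in WT. Its raw counts were 22, 35 and 37 on air against 9, 18 and 26 on nicotine among WT libraries, and 26, 18 and 28 on air against 25, 8 and 21 on nicotine among KO libraries. These counts cover the whole gene and do not check the genotype, so KO means the libraries labelled KO.

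No single gene passed the edgeR quasi-likelihood test of the average after Benjamini-Hochberg adjustment, in either direction (0% of genes tested, lowest edgeR adjusted p = 0.132). The unadjusted p was under 0.05 for 1600 genes (10.9%), 821 higher with nicotine (5.62%) and 779 lower (5.33%); with no gene different, 731 would pass on average. DESeq2, run as an alternative on the same counts, called 66 genes higher and 25 lower, and 90 of these 91 had the same sign in both genotypes in the edgeR fit. Without the library WT air 8, edgeR called 17 genes higher and 21 lower, all 38 with the same sign in both genotypes. Calling genes by their average favours those with the same sign in both genotypes. These shares are therefore a description and do not test whether the effect was shared.

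The count at an unadjusted p under 0.05 moved with single libraries and with tissue content. It was 995 without WT air 9, 2711 without WT air 8 and 2418 without KO nicotine 5. With a score of adipocyte markers in each library as a covariate it was 840, with a skeletal muscle score 885, and with a smooth muscle contractile score 654. Differences named below are therefore described by their values and not as changes.

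Seen gene by gene, the effects in the 2 genotypes were weakly related. The WT and KO log2 fold changes, which share no library, had a Pearson correlation of 0.138 across the 14621 genes, given as a description since genes are not independent. Both were above 0 in 30.4% of genes, both below 0 in 29.4% and of opposite signs in 40.2%. Of all genes 51.4% had an average above 0 and 48.6% below 0. The unadjusted edgeR p was under 0.05 in WT for 9.84% of genes (5.43% higher, 4.41% lower) and in KO for 4.58% (2.48% higher, 2.1% lower). It was under 0.05 in both genotypes for 45 genes higher in both (0.308%), 44 lower in both (0.301%) and 15 of opposite signs (0.103%). Nicotine and air libraries did not overlap within either genotype for 78 genes higher in both (0.533%), 71 lower in both (0.486%) and 43 of opposite signs (0.294%). All 6 nicotine libraries lay above all 6 air libraries for 26 genes (0.178%) and below them for 15 (0.103%).

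**Figure D1:**
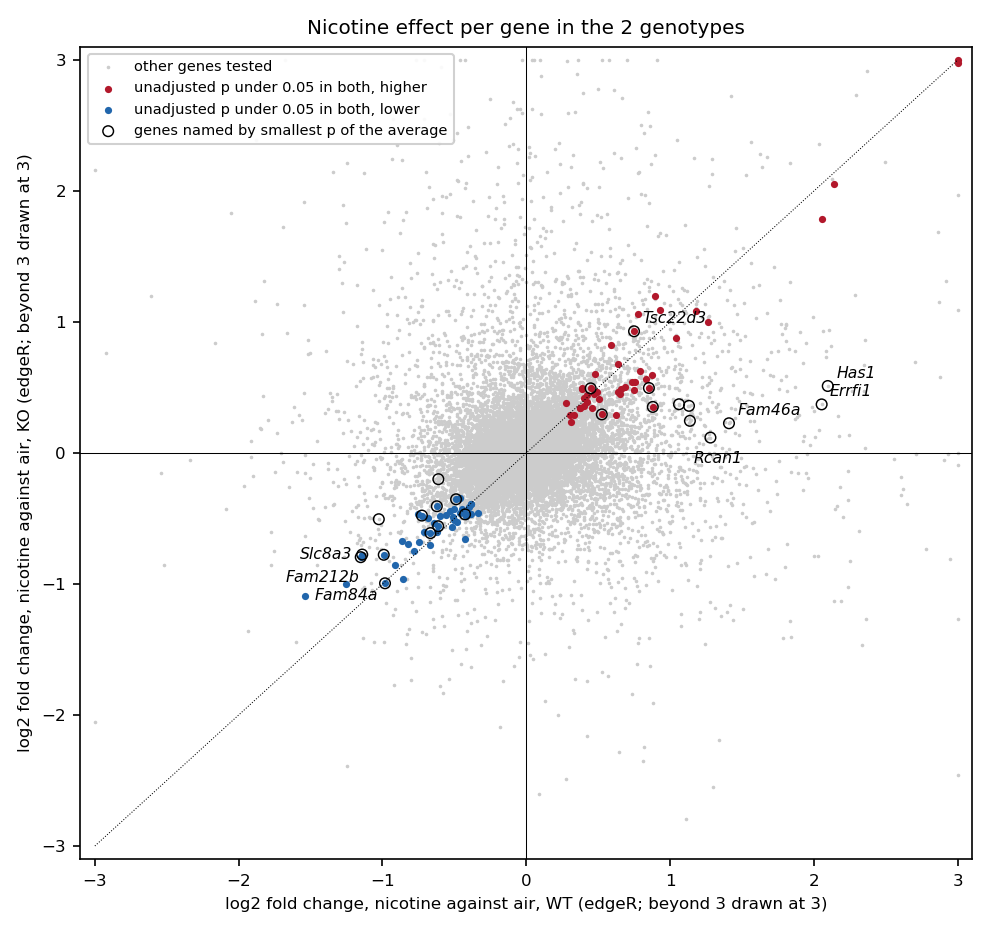
Each point is a gene, with the edgeR log2 fold change of nicotine against air in WT on the x axis and in KO on the y axis (values beyond 3 are drawn at 3), and the dotted line marks equal effects. The 45 red and 44 blue genes, with an unadjusted p under 0.05 in both genotypes, lie along the dotted line by this choice, while Has1, Errfi1, Rcan1 and Fam46a lie far to the right of it, with a larger effect in WT.

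The gene with the lowest p of the average, Has1, encodes a hyaluronan synthase, an enzyme of the plasma membrane that spins out the long sugar polymer hyaluronan into the matrix. Has1 stood at 1.74, 2.22 and 2.02 CPM on air against 8.36, 7.38 and 9.96 on nicotine among WT libraries, and at 2.72, 2.31 and 1.90 on air against 3.94, 2.96 and 2.99 on nicotine among KO libraries. Every nicotine library was above every air library, and the WT nicotine libraries were the highest. Its average log2 fold change was 1.30 ± 0.19 (SE, edgeR unadjusted p = 1.17e-05), made of 2.10 ± 0.27 in WT and 0.51 ± 0.27 in KO. The KO effect minus the WT effect was -1.59 ± 0.39 (95% interval -2.42 to -0.75), and this difference did not pass after adjustment over all genes.

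Ugdh, which makes UDP-glucuronate, a substrate of hyaluronan synthases, stood at 32.8, 40.5 and 33.9 CPM on air against 61.0, 65.1 and 71.0 on nicotine among WT libraries, and at 36.5, 30.7 and 28.5 on air against 46.9, 35.7 and 39.5 on nicotine among KO libraries. WT nicotine lay wholly above the other groups, while KO nicotine 4, the lowest of its group, was just under KO air 1. Its average log2 fold change was 0.62 ± 0.10 (edgeR unadjusted p = 2.7e-05), with 0.88 ± 0.14 in WT and 0.35 ± 0.14 in KO. Uap1, which makes UDP-N-acetylglucosamine and was picked out after its values were seen, stood at 83.3, 60.9 and 57.7 CPM on air against 84.3, 86.4 and 109 on nicotine among WT libraries, and at 59.3, 50.9 and 47.1 on air against 79.2, 71.1 and 64.4 on nicotine among KO libraries. Its effects were 0.47 ± 0.16 in WT and 0.45 ± 0.16 in KO, a difference of -0.02 ± 0.22 (95% interval -0.50 to 0.46). Nicotine and air did not overlap within either genotype, by a narrow margin in WT, where air library 8 almost reached nicotine library 6. Has2, another synthase gene, averaged 1.19 ± 0.46 (2.25 in WT, 0.14 in KO). The hyaluronan-binding protein gene Tnfaip6 had an average of 0.87 ± 0.21 (1.28 in WT, 0.46 in KO). Hyal1, a lysosomal enzyme that cuts hyaluronan, was at -0.31 ± 0.10 (-0.33 in WT, -0.29 in KO). On the list of calcineurin-NFAT and hyaluronan genes 5 of 16 had an unadjusted p under 0.05 on the higher side and 3 on the lower side. These shares were 5.62% and 5.33% over all genes. In both genotypes 9 were above 0 and 4 below 0 (30.4% and 29.4% of all genes), and the median was 0.12.

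Genes known to respond to glucocorticoids, the adrenal stress hormones, were higher in most cases. Among them Tsc22d3, the glucocorticoid-induced leucine zipper, had the lowest p, and its effect was no smaller in KO than in WT. Tsc22d3 stood at 70.5, 62.4 and 78.6 CPM on air against 106, 110.3 and 139.7 on nicotine among WT libraries, and at 40.2, 47.4 and 48.5 on air against 109.6, 93.2 and 56.7 on nicotine among KO libraries. Nicotine and air did not overlap within either genotype, and KO nicotine 5 was the lowest of its group. Its log2 fold change averaged 0.84 ± 0.14 (edgeR unadjusted p = 5.75e-05), with 0.75 ± 0.20 in WT and 0.93 ± 0.20 in KO. The difference between genotypes was 0.18 ± 0.29 (95% interval -0.44 to 0.80). When 1 library was left out the average of Tsc22d3 ranged from 0.74 without KO nicotine 3 to 0.96 without KO nicotine 5.

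Other members of the same list followed with more spread. Ddit4, an inhibitor of the growth kinase mTORC1, averaged 0.75 ± 0.22 (0.85 in WT, 0.65 in KO), and the clock gene Per1 0.47 ± 0.14 (0.68 and 0.27). Fkbp5, a co-chaperone of the glucocorticoid receptor, was uneven, at 63.6, 95.6 and 113 CPM on air against 58.1, 62.8 and 167 on nicotine among WT libraries, and at 47.9, 42.5 and 45.9 on air against 164, 77.5 and 60.3 on nicotine among KO libraries. Of the 17 tested members of the list, 15 had log2 fold changes above 0 in both genotypes (30.4% of all genes), none below 0 in both, and 7 had an unadjusted p under 0.05 on the higher side (5.62% of all genes). The list's median was 0.47, against 0.01 over all genes, with 0.68 in WT and 0.46 in KO. The mean log2 CPM of the list was 5.81, 5.48 and 6.02 on air against 6.44, 6.26 and 6.55 on nicotine among WT libraries, and 5.46, 5.51 and 5.67 on air against 6.21, 6.12 and 5.62 on nicotine among KO libraries. In WT the exposures did not overlap, and in KO they overlapped through library 5.

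**Figure D2:**
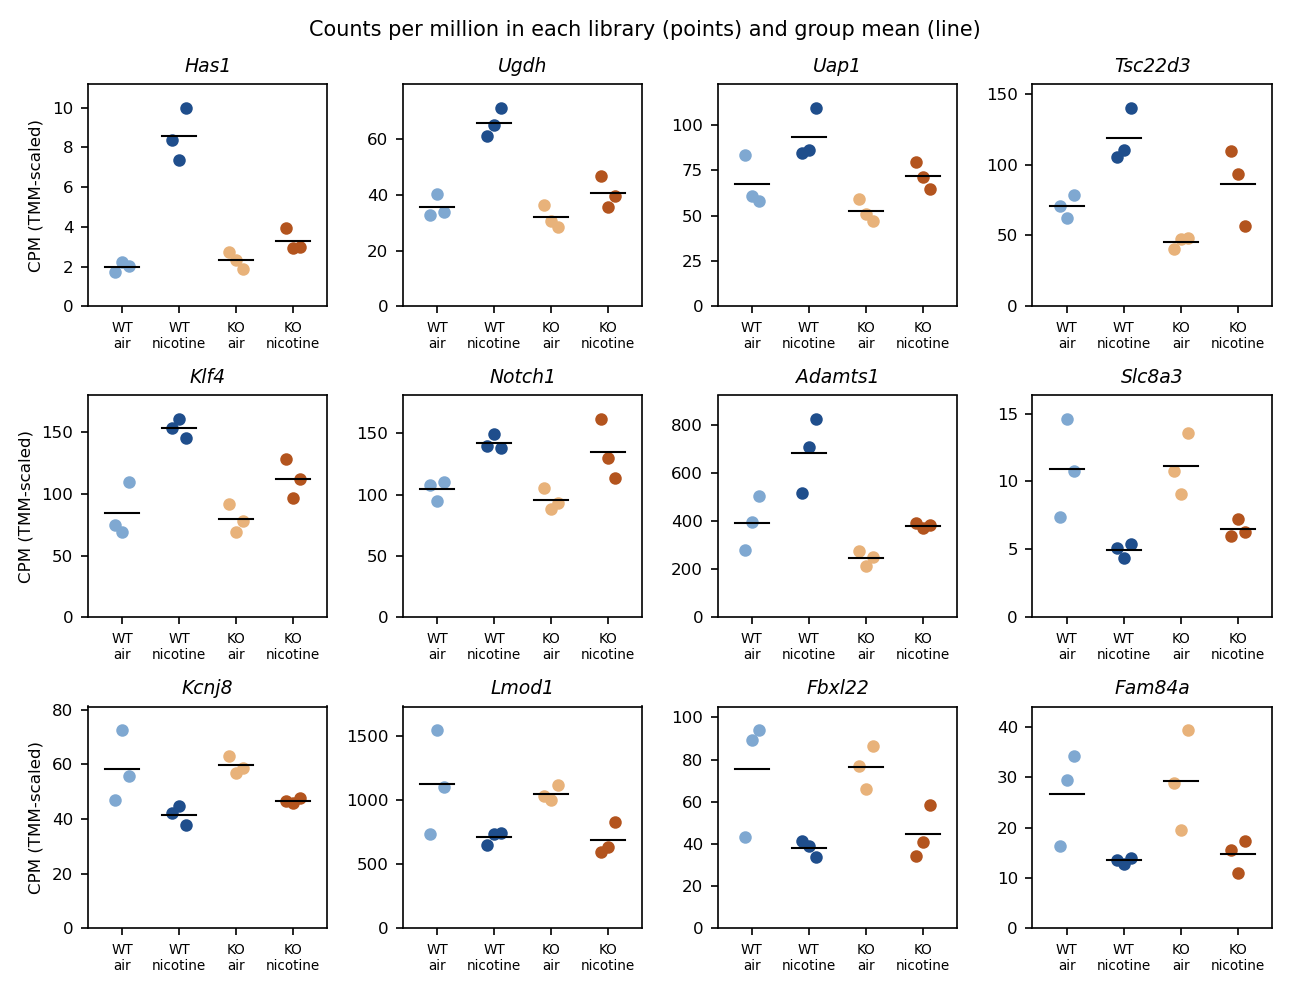
Each panel shows 1 gene, with CPM on the y axis from 0, the 4 groups on the x axis, a point per library and a line at the group mean. Has1, Notch1 and Slc8a3 separate the 6 nicotine from the 6 air libraries, and the other 9 genes separate in part.

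Transcription factors and signalling brakes of the early response formed another part of the higher genes. Klf4, a factor that can repress contractile genes of smooth muscle, stood at 75.0, 69.2 and 109.6 CPM on air against 153, 160.2 and 145 on nicotine among WT libraries, and at 91.3, 69.2 and 77.8 on air against 128, 96.7 and 112 on nicotine among KO libraries. Nicotine and air did not overlap within either genotype. Its average was 0.67 ± 0.12 (edgeR unadjusted p = 7.21e-05), with 0.85 ± 0.17 in WT and 0.50 ± 0.17 in KO. Nr4a3, a nuclear receptor induced by many stimuli, stood at 149, 66.2 and 93.8 CPM on air against 158, 225 and 316 on nicotine among WT libraries, and at 57.8, 33.4 and 32.7 on air against 146, 58.6 and 58.6 on nicotine among KO libraries. Its exposures were also apart within each genotype, narrowly so in KO, with effects of 1.18 ± 0.45 and 1.09 ± 0.45. Myc averaged 0.84 ± 0.20 and Fosl2, an AP-1 subunit, 0.68 ± 0.15, the second almost wholly from WT (1.23, against 0.13 in KO). Over the 26 immediate early genes tested, 14 were above 0 in both genotypes (30.4% of all genes) and none below 0 in both, 6 had an unadjusted p under 0.05 on the higher side (5.62% of all genes), and the median was 0.43, with 0.84 in WT and 0.01 in KO. Those above 0 in both numbered 7 without KO air 2 or without KO nicotine 5, where the median was 0.29 and 0.23. Without WT air 10 the median was 0.75 and 18 had an unadjusted p under 0.05.

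Errfi1, a feedback inhibitor of the epidermal growth factor receptor, stood at 101, 68.0 and 113 CPM on air against 507, 391 and 275 on nicotine among WT libraries, and at 90.5, 89.1 and 84.8 on air against 153, 96.2 and 93.2 on nicotine among KO libraries. Its 3 WT nicotine libraries were far above all others, and in KO nicotine only library 3 stood well clear of air. Its average of 1.21 ± 0.18 came from 2.05 ± 0.26 in WT and 0.37 ± 0.25 in KO, and the KO effect minus the WT effect was -1.68 ± 0.36. Spry4, a brake on receptor tyrosine kinase signalling, averaged 0.72 ± 0.14 (1.06 and 0.37). Rcan1, an inhibitor of the phosphatase calcineurin, averaged 0.70 ± 0.12 (1.28 and 0.12), Arid5a, which stabilizes inflammatory messenger RNAs, 0.75 ± 0.13 (1.13 and 0.36), and Fam46a 0.82 ± 0.15 (1.41 and 0.23). In KO the exposures overlapped for Spry4, Rcan1, Arid5a and Fam46a, and each of these was apart in WT.

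In the WT contrast on its own edgeR called 3 genes (0.0205% of genes tested), Has1, Errfi1 and Rcan1, each with an edgeR adjusted p of 0.0190, and in the KO contrast none (0%, lowest edgeR adjusted p = 0.878). Promoter letters of these 3 are shown because they hold the same motif. The sequence TGACGTCA, the full cAMP response element, occurred in the 300-base promoter window (250 bases before to 50 after the start, RefSeq, GRCm38.p6) of Has1, Errfi1 and Rcan1, which is 3 of the 10 matched genes among the 12 named as higher, against 3.4% of the 10866 tested genes that matched. The stretches below are 100 bases that lie before the start site, with the motif in capitals. It begins 83 bases before the start in Has1, 51 in Errfi1 and 175 in Rcan1, and for the last pair in 1 of the gene's 2 windows.
Has1 (chr17:17855218-17855317, - strand): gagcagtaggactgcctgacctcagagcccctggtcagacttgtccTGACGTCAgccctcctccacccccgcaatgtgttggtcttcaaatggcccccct
Errfi1 (chr4:150854970-150855069, + strand): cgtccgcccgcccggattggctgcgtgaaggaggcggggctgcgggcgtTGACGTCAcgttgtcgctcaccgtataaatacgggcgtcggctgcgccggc
Rcan1 (chr16:92400200-92400299, - strand): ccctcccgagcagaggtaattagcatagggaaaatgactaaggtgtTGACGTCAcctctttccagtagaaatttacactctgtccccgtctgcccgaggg
The motif reads the same on both strands. Of the 33 matched genes with an unadjusted p under 0.05 in both genotypes and higher values, 1 held it (3.03%).

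Several other genes of the vessel wall were higher in both genotypes, some by similar amounts and some with a larger value in WT. Notch1, a receptor that reads ligands on neighbouring cells, stood at 108, 95.1 and 110.3 CPM on air against 139.8, 149 and 138 on nicotine among WT libraries, and at 106, 88.5 and 93.5 on air against 161, 129.9 and 114 on nicotine among KO libraries. All 6 nicotine libraries lay above all 6 air libraries. Its average was 0.47 ± 0.09 (edgeR unadjusted p = 0.000192), with 0.45 ± 0.13 in WT and 0.49 ± 0.13 in KO, and the genotypes differed by 0.05 ± 0.19 (95% interval -0.35 to 0.44). Its ligand gene Dll4 averaged 0.50 ± 0.22 (0.45 and 0.54), and of the target genes Hes1 averaged 0.42 ± 0.15 and Heyl -0.67 ± 0.21. Heyl was thus lower, with -0.58 in WT and -0.75 in KO. Among 13 tested Notch genes 4 had an unadjusted p under 0.05 and a value above 0 (5.62% of all genes). Only Heyl had such a p and a value below 0 (5.33% of all genes), and the list median was 0.17.

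Adamts1, a secreted protease that cuts the proteoglycans versican and aggrecan, stood at 279, 396 and 505 CPM on air against 517, 706 and 823 on nicotine among WT libraries, and at 278, 213 and 249.9 on air against 391, 371 and 384 on nicotine among KO libraries. Nicotine was above air within each genotype, narrowly so in WT, and WT air overlapped KO nicotine. The effects were 0.79 ± 0.21 in WT and 0.63 ± 0.21 in KO. Slc3a2, the shared heavy chain of several amino acid transporters, had effects of 0.53 ± 0.12 and 0.30 ± 0.12. Picked out after their values were seen, the endothelial sphingosine-1-phosphate receptor gene S1pr1 had effects of 0.83 ± 0.23 in WT and 0.57 ± 0.23 in KO. The protocadherin gene Pcdh19, chosen likewise, had 0.64 ± 0.20 and 0.68 ± 0.20, and Dlc1 had 0.62 ± 0.13 and 0.29 ± 0.13. All 6 nicotine libraries exceeded all 6 air libraries for Pcdh19 and Dlc1. For S1pr1 they did not, because WT air 8, at 68.2 CPM, lay within the nicotine range.

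Among genes lower with nicotine, the lowest p belonged to Slc8a3, a sodium-calcium exchanger. It stood at 7.40, 14.6 and 10.8 CPM on air against 5.12, 4.36 and 5.39 on nicotine among WT libraries, and at 10.8, 9.06 and 13.5 on air against 5.95, 7.25 and 6.31 on nicotine among KO libraries. Every nicotine library was below every air library, narrowly so for KO nicotine 4 against WT air 8. The average was -0.96 ± 0.18 (edgeR unadjusted p = 0.000128), from -1.14 ± 0.26 in WT and -0.78 ± 0.25 in KO. The KO effect minus the WT effect was 0.37 ± 0.36 (95% interval -0.41 to 1.14).

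Kcnj8 encodes the pore of the vascular ATP-sensitive potassium channel. It stood at 46.8, 72.5 and 55.7 CPM on air against 42.1, 44.8 and 38.0 on nicotine among WT libraries, and at 63.2, 57.0 and 58.8 on air against 46.4, 46.0 and 47.7 on nicotine among KO libraries. Exposures were apart within both genotypes, and the KO nicotine libraries were close together. The average was -0.42 ± 0.10, from -0.49 ± 0.14 in WT and -0.35 ± 0.14 in KO. Of 25 tested calcium and potassium channel and pump genes of smooth muscle, 19 were below 0 in both genotypes (29.4% of all genes), 5 above 0 in both, and 10 had an unadjusted p under 0.05 on the lower side (5.33% of all genes) against 2 on the higher side. These 10 included Ryr2, the calcium release channel of the sarcoplasmic reticulum (-0.47), Cacnb3, a subunit of the L-type calcium channel (-0.38), and Kcnmb1, a subunit of the large-conductance potassium channel that is also on the contractile list (-0.43). The higher pair were Atp2b1, a calcium pump of the plasma membrane (0.23), and the voltage-gated potassium channel gene Kcna5 (0.82). The list's median was -0.30, and leaving out 1 library moved it between -0.36 (without WT air 8) and -0.19 (without KO nicotine 3).

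The contractile apparatus of smooth muscle was lower nearly throughout. Of the 20 tested genes on that list 19 were below 0 in both genotypes (29.4% of all genes), none was above 0 in both, and 16 had an unadjusted p under 0.05 on the lower side (5.33% of all genes). The median log2 fold change was -0.40, with -0.46 in WT and -0.37 in KO. Leaving out 1 library moved the median between -0.51 (without KO nicotine 5) and -0.33 (without KO nicotine 3) and the 16 genes between 10 and 18. In these bulk samples fewer smooth muscle cells and less contractile RNA per cell cannot be told apart.

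Lmod1, which nucleates actin filaments in smooth muscle, had the lowest p of the list. It stood at 737, 1547 and 1101 CPM on air against 649.5, 736 and 747 on nicotine among WT libraries, and at 1033, 1005 and 1116 on air against 596, 636 and 833 on nicotine among KO libraries. In KO the exposures were apart, and in WT air library 8 lay within the nicotine range. The average was -0.64 ± 0.16 (edgeR unadjusted p = 0.00116), from -0.67 ± 0.22 in WT and -0.61 ± 0.22 in KO, a difference of 0.06 ± 0.31 (95% interval -0.61 to 0.72). Csrp1, a LIM-domain protein bound to actin, had effects of -0.46 ± 0.18 in WT and -0.46 ± 0.18 in KO. Tpm2, a tropomyosin, had -0.54 ± 0.20 and -0.39 ± 0.20, and Ppp1r14a, an inhibitor of myosin phosphatase, -0.57 ± 0.22 and -0.42 ± 0.22. The most abundant members varied more. Smooth muscle actin, Acta2, stood at 9842, 13533 and 13829 CPM on air against 9556, 7630 and 9305 on nicotine among WT libraries, and at 11692, 9810 and 11731 on air against 6891, 7309 and 12246 on nicotine among KO libraries, with KO nicotine 5 above all KO air libraries. Its average was -0.41 ± 0.17, and that of the smooth muscle myosin gene Myh11 was -0.35 ± 0.17.

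Markers of fat lay on the other side of 0 from the contractile genes. Of 16 tested adipocyte markers 15 were above 0 in both genotypes (30.4% of all genes), none below 0 in both, and 3 had an unadjusted p under 0.05 on the higher side (5.62% of all genes), with a median of 0.62 (0.70 in WT, 0.62 in KO). Without KO nicotine 4 the median was 0.41, with 10 above 0 in both and none with an unadjusted p under 0.05, and without WT air 8 it was 1.01, with 14 such members. No adipocyte marker was at 0 in any library. The summed level of the 16 was 2311 to 7584 CPM on air against 6680 to 7594 CPM on nicotine among WT libraries, and 4078 to 7642 CPM on air against 4456 to 11731 CPM on nicotine among KO libraries. Adipoq, the adipokine adiponectin, stood at 269, 55.6 and 114 CPM on air against 344, 295 and 228 on nicotine among WT libraries, and at 122, 221 and 119 on air against 243, 424 and 123 on nicotine among KO libraries, so that WT air 8 and KO air 2 lay within the nicotine range of their genotype. Once the adipocyte score was added as a covariate, Lmod1 averaged -0.34, Csrp1 -0.24, Tpm2 -0.24, Acta2 -0.18 and Myh11 -0.10. The same covariate gave -0.72 for Slc8a3, -0.27 for Kcnj8, 0.70 for Tsc22d3, 0.43 for Notch1, 0.72 for Ugdh and 1.39 for Has1. For the channel genes Ryr2 and Cacnb3 it gave -0.27 and -0.12, against -0.47 and -0.38 without a covariate. A contractile score as the covariate, an alternative chosen after seeing the data whose genes include Acta2 and Myh11, put these at 0.028 and 0.079. It left Slc8a3 at -0.62, Kcnj8 at -0.24, Tsc22d3 at 0.53, Notch1 at 0.30 and Has1 at 1.38. Ryr2 was at -0.10 and Cacnb3 at -0.035 with this score.

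**Figure D3:**
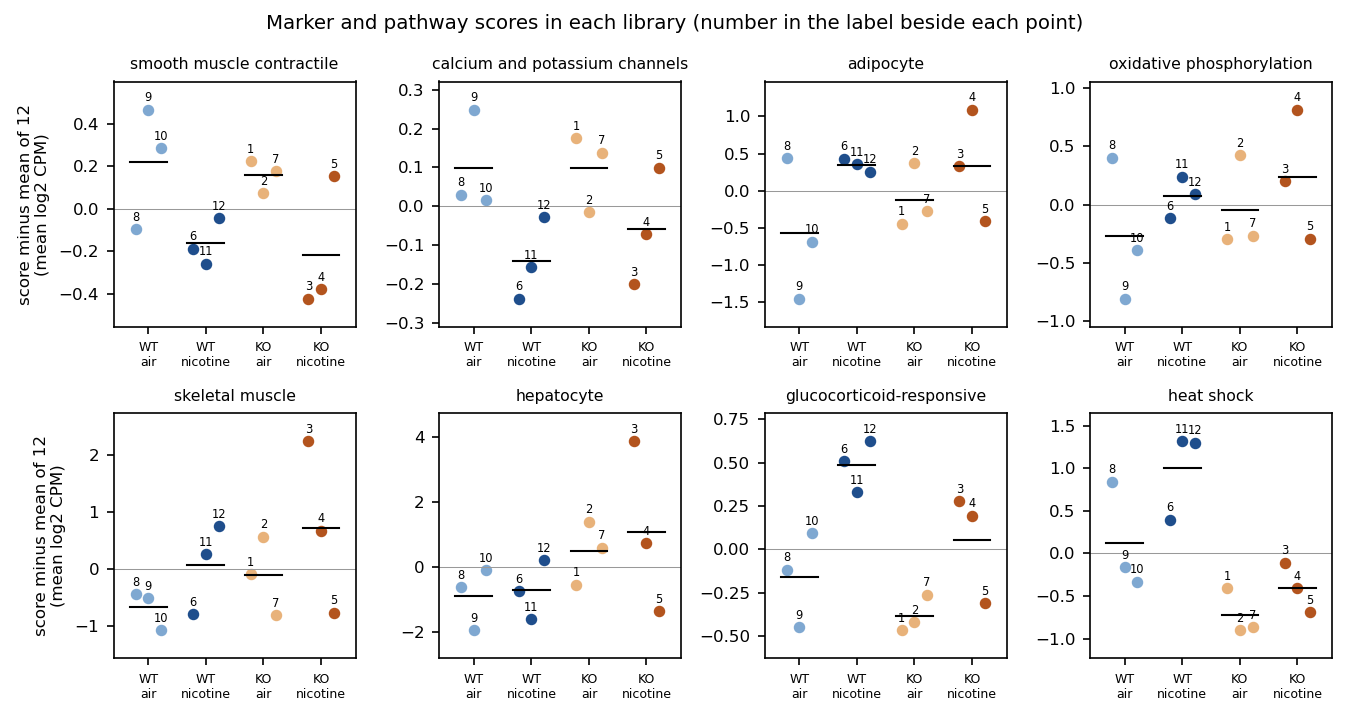
Each panel shows a list's score, the mean log2 CPM over its tested members minus the mean of the 12 libraries, by group, with a point per library labelled by its number and a line at the group mean. Contractile scores are low where adipocyte scores are high in WT air 8 and in KO nicotine 3 and 4. KO air 2 has an adipocyte score near that of KO nicotine 3 but a higher contractile score. KO nicotine 5 has contractile and adipocyte scores within or near those of KO air, and skeletal muscle and hepatocyte scores are highest in KO nicotine 3.

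The lower genes outside the contractile list included Fbxl22 and Fam84a. Fbxl22, an F-box protein of muscle, stood at 43.5, 89.2 and 93.9 CPM on air against 41.2, 39.2 and 33.7 on nicotine among WT libraries, and at 77.1, 66.1 and 86.3 on air against 34.3, 41.0 and 58.5 on nicotine among KO libraries. Exposures were apart within each genotype, though WT air 8 was close to the nicotine libraries. Its effects were -0.99 ± 0.27 and -0.78 ± 0.27. Fam84a stood at 16.3, 29.5 and 34.1 CPM on air against 13.6, 12.8 and 14.0 on nicotine among WT libraries, and at 28.8, 19.6 and 39.3 on air against 15.5, 11.1 and 17.4 on nicotine among KO libraries, with effects of -0.98 ± 0.29 and -0.99 ± 0.29 and no overlap within a genotype. The adipocyte covariate gave -0.55 for Fbxl22 and -0.61 for Fam84a. Fam212b averaged -0.97 ± 0.19, the membrane metalloprotease gene Adam19 -0.59 ± 0.12, Bmf, which promotes cell death, -0.77 ± 0.17, St5 -0.60 ± 0.14, the zinc finger gene Cxxc5 -0.51 ± 0.12, Sh3bgr -0.45 ± 0.11 and Bcl9, a partner of beta-catenin, -0.41 ± 0.09. Among these Adam19 (-0.61 and -0.56) and Sh3bgr (-0.43 and -0.47) had the smallest differences between genotypes, and Bmf (-1.03 and -0.51) the largest.

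CArG boxes, the binding sequence of serum response factor, were counted in the same promoter windows because the lower genes included contractile genes. They occurred in 5 of 26 matched genes with an unadjusted p under 0.05 in both genotypes and lower values (19.2%: Cbr2, Cnn2, Fbxl22, Myl9 and Vamp1), in none of the 33 matched higher genes and in 1.67% of the tested genes that matched. On the contractile list 2 of 17 matched genes held one (Myl9 and Vcl). The stretches shown are for 3 lower genes of muscle or actin filaments, with the box in capitals, which begins 222 bases before the start in Fbxl22, 161 in Myl9 and 56 in Cnn2.
Fbxl22 (chr9:66514744-66514843, - strand): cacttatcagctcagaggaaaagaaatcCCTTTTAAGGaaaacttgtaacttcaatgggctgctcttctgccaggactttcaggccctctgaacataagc
Myl9 (chr2:156775257-156775356, + strand): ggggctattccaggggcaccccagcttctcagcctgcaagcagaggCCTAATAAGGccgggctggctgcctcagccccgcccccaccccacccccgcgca
Cnn2 (chr10:79988498-79988597, + strand): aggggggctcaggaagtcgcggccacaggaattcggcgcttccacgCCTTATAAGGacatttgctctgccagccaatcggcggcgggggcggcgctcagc
Myl9, the regulatory light chain of smooth muscle myosin, had effects of -0.43 ± 0.20 in WT and -0.45 ± 0.20 in KO. Cnn2, a calponin that binds actin, had -0.50 ± 0.17 and -0.43 ± 0.17. In all 6 motifs were searched, and these 2 and the promoters shown were chosen after the counts were seen. Of the other 4, the AP-1 motif TGANTCA was in none of the 33 higher and 7.69% of the 26 lower genes (6.71% of tested genes), CACGTG in 21.2% and 11.5% (11.3%), AGAACA on either strand in 21.2% and 3.85% (15.3%), and GGAAAA on either strand in 27.3% and 26.9% (24.3%). A match describes these letters in this window and is not a measured site.

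Vasomotor genes were split between higher and lower values. Gucy1a3 and Gucy1b3, the subunits of the nitric oxide receptor guanylate cyclase, averaged -0.44 ± 0.15 and -0.33 ± 0.15, and Pde3a, which breaks down cyclic nucleotides, -0.28 ± 0.13. With the adipocyte score as a covariate Gucy1a3, Gucy1b3 and Pde3a averaged -0.20, -0.093 and -0.069. The contractile score put them at -0.018, 0.12 and 0.068. Gch1, which starts the synthesis of the nitric oxide synthase cofactor tetrahydrobiopterin, averaged 0.62 ± 0.18 (0.81 in WT, 0.42 in KO). It was at 0.60 with the adipocyte score and 0.49 with the contractile score. Of 15 tested genes of this pathway 3 had an unadjusted p under 0.05 on the lower side and 1 on the higher side (5.33% and 5.62% of all genes). Adra1d, an alpha1 receptor that contracts vessels, averaged -0.48 ± 0.21 (-0.83 and -0.14). Of 16 nicotinic receptor subunits 5 had enough counts to be tested, and 3 were below 0 in both genotypes (29.4% of all genes). None had an unadjusted p under 0.05 in either direction (10.9% of all genes). Chrna7 averaged -0.56 ± 0.33.

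Of 19 macrophage markers 13 were above 0 in both genotypes (30.4% of all genes) and 11 had an unadjusted p under 0.05 on the higher side (5.62% of all genes). Those above 0 in both numbered 6 without KO nicotine 3 and 7 without KO air 2. The median was 0.77 in WT and 0.03 in KO. Lyve1, a hyaluronan receptor of resident macrophages and lymphatic endothelium, was the member with an unadjusted p under 0.05 in both and higher values, at 25.8, 23.9 and 28.2 CPM on air against 49.5, 39.8 and 53.8 on nicotine among WT libraries, and at 19.3, 21.7 and 15.5 on air against 41.4, 19.0 and 25.0 on nicotine among KO libraries. KO nicotine 4 lay within the KO air range, and effects were 0.88 ± 0.24 and 0.60 ± 0.24. Mrc1, the mannose receptor, averaged 0.69 ± 0.14 (1.14 and 0.25), while Cbr2 was lower in both (-0.38 and -0.39). Of 15 heat shock genes 14 were above 0 in both genotypes and 4 had an unadjusted p under 0.05 (30.4% and 5.62% of all genes), with a median of 0.67 in WT and 0.32 in KO. Without WT air 8 there were 10 with an unadjusted p under 0.05, and without WT nicotine 12 there were 10 above 0 in both. Dnajb4, a cofactor of the chaperone Hsp70, stood at 358, 175 and 267 CPM on air against 562, 759 and 613 on nicotine among WT libraries, and at 237, 104 and 148 on air against 210.0, 235 and 265 on nicotine among KO libraries, with effects of 1.27 ± 0.30 and 0.54 ± 0.30. In cytokine, chemokine and adhesion genes the medians were 0.70 and 0.00, and in neutrophil markers 1.76 and -0.06. Of 7 neutrophil markers 3 were above 0 in both genotypes (30.4% of all genes). Their averaged median was 0.85, and 0.36 without WT nicotine 6, and WT air 9 scored above WT nicotine 11.

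Mast cell markers were scarce, and all 6 tested were above 0 in both genotypes (30.4% of all genes), with a median of 0.81. An unadjusted p under 0.05 on the higher side was seen for 3 (5.62% of all genes). Cma1, a mast cell chymase, stood at 3.39, 1.48 and 3.47 CPM on air against 8.16, 6.71 and 4.002 on nicotine among WT libraries, and at 4.25, 5.98 and 4.54 on air against 5.13, 13.3 and 5.99 on nicotine among KO libraries, with effects of 1.17 ± 0.42 and 0.72 ± 0.41. The summed level of the 6 was 14.7 to 32.7 CPM on air against 38.6 to 49.3 CPM on nicotine among WT libraries, and 23.4 to 39.1 CPM on air against 34.6 to 76.2 CPM on nicotine among KO libraries, so the exposures were apart in WT and overlapped in KO. Of 5 lymphatic endothelial markers 3 were above 0 in both genotypes (30.4% of all genes), with Prox1 at 1.31 ± 0.38 and Flt4 at 0.58 ± 0.19. Endothelial markers had 8 of 12 above 0 in both (30.4% of all genes) and a median of 0.27. None had an unadjusted p under 0.05 in either direction (10.9% of all genes).

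Transcripts of skeletal muscle and liver varied widely between libraries. The summed level of 14 skeletal muscle markers was 48.9 to 289 CPM on air against 57.7 to 377 CPM on nicotine among WT libraries, and 69.7 to 1349 CPM on air against 142 to 632 CPM on nicotine among KO libraries. The highest sum, in KO air 2, was mostly Ttn, the giant sarcomere protein titin, at 1278 CPM there. Myh4, a fast skeletal myosin, stood at 0.435, 2.55 and 0.161 CPM on air against 0.787, 16.0 and 22.05 on nicotine among WT libraries, and at 1.02, 1.37 and 0.0825 on air against 99.7, 19.2 and 0.405 on nicotine among KO libraries, so that KO nicotine 3 held several times the level of any other library. Of 14 tested skeletal muscle markers 9 were above 0 in both genotypes (30.4% of all genes). An unadjusted p under 0.05 on the higher side was seen for 6 (5.62% of all genes). Their median was 0.88, and it became 0.50 without KO nicotine 3. Tnni2, a fast skeletal troponin that counted among the 45 genes, was at 9.16 CPM in KO nicotine 3 and at 2.20 CPM at most in the other 11. Pvalb, the muscle calcium buffer parvalbumin, had raw counts of 0, 0 and 0 on air against 1, 6 and 18 on nicotine among WT libraries, and 1, 0 and 0 on air against 43, 14 and 3 on nicotine among KO libraries. Alb, the liver protein albumin, was at 1815 CPM in KO nicotine 3 and between 14.3 and 327 CPM in the other 11, and the median of 12 hepatocyte markers was 0.90, or -0.35 without that library. With the skeletal muscle score as a covariate Tsc22d3 averaged 0.63, Notch1 0.39, Slc8a3 -0.89 and Lmod1 -0.56.

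All 25 oxidative phosphorylation subunits were above 0 in both genotypes, with averages between 0.20 and 0.41 and a median of 0.29, and none had an unadjusted p under 0.05 (30.4% and 5.62% of all genes). This rested on single libraries. Above 0 in both were 9 without KO nicotine 4 and 13 without WT air 9, and 16 had an unadjusted p under 0.05 without WT air 8. Atp5b, a subunit of ATP synthase, averaged 0.37 ± 0.25. The list's mean log2 CPM was 7.59, 6.38 and 6.80 on air against 7.07, 7.43 and 7.28 on nicotine among WT libraries, and 6.89, 7.61 and 6.92 on air against 7.39, 8.00 and 6.90 on nicotine among KO libraries. WT air 8 and KO air 2 lay above most nicotine libraries. The median was 0.11 without KO nicotine 4 and 0.50 without WT air 8. Markers of brown fat, a tissue rich in mitochondria, had a median of 0.43, and 7 of 10 were above 0 in both genotypes (30.4% of all genes). Ucp1, the uncoupling protein of brown fat, was at -0.10 ± 0.53 in WT and 0.51 ± 0.53 in KO. The adipocyte score had the same pattern over libraries, with WT air 8 and KO air 2 high and KO nicotine 5 low, and its part in this result was not tested.

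**Figure D4:**
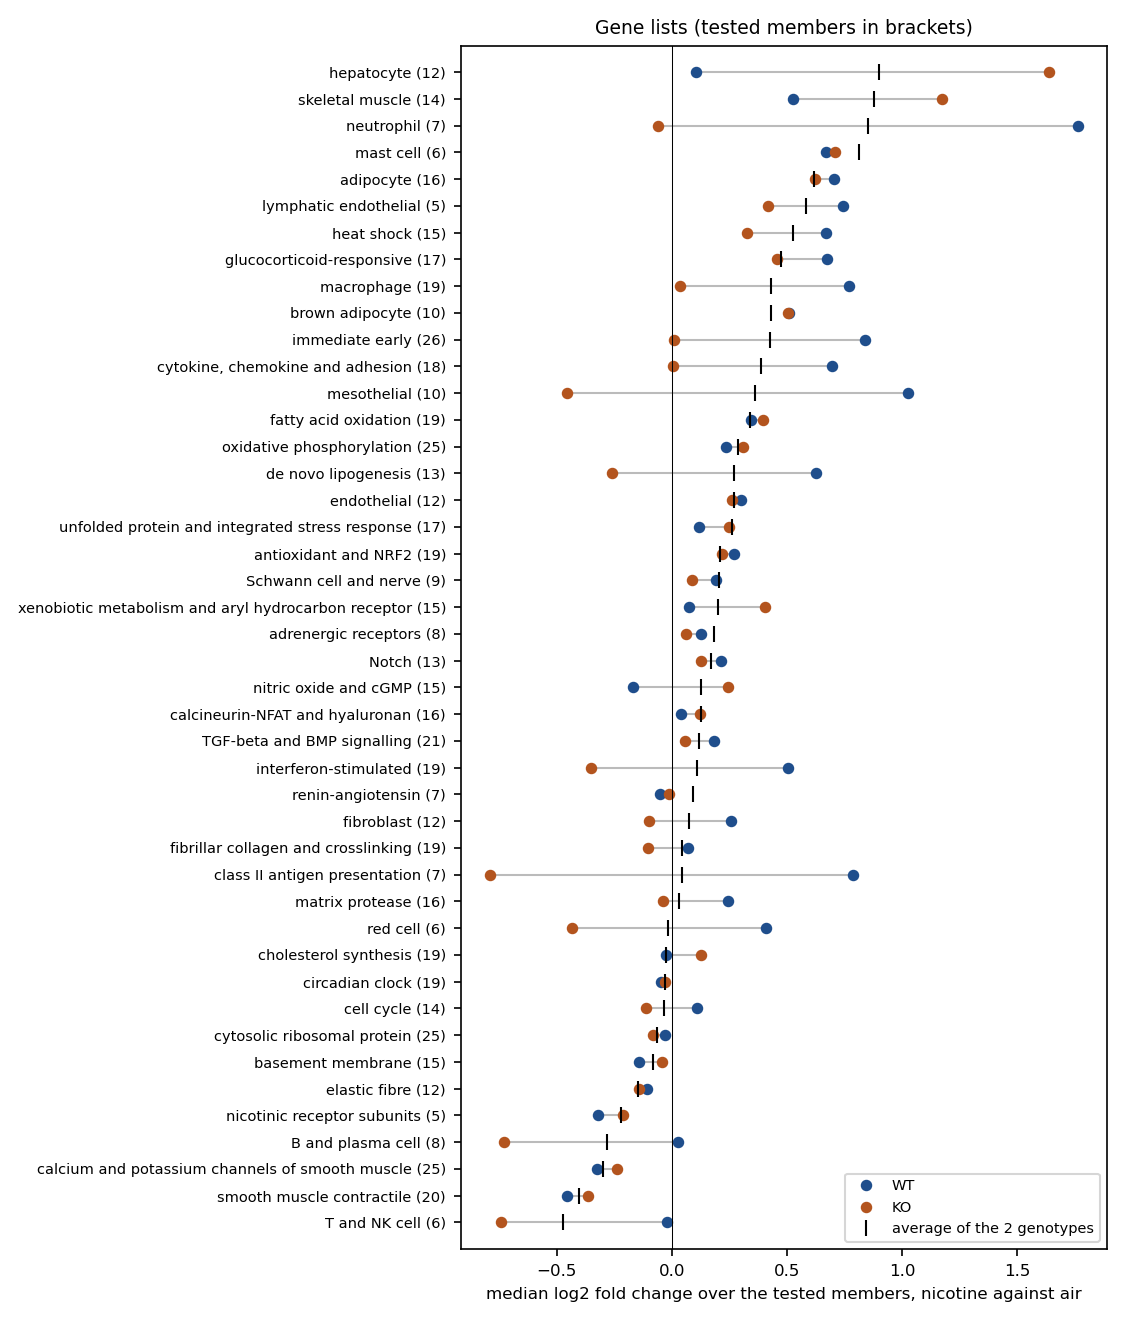
Each row is a gene list with its number of tested members, and the x axis is the median log2 fold change of nicotine against air over them, in WT (blue), in KO (orange) and averaged (black tick). Contractile genes and the calcium and potassium channels lie below 0 in both genotypes, and glucocorticoid-responsive, heat shock, adipocyte and mast cell genes above 0 in both. Mesothelial and class II antigen presentation genes lie on opposite sides of 0, and neutrophil genes above 0 in WT and near 0 in KO.

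Some lists had opposite signs in the 2 genotypes (40.2% of all genes). All 7 class II antigen presentation genes were above 0 in WT and below 0 in KO, with medians of 0.78 and -0.79. Cd74, the class II invariant chain, had effects of 0.89 ± 0.39 and -0.80 ± 0.39. All 12 fibroblast markers likewise had opposite signs, at medians of 0.26 and -0.10, but 5 of them were above 0 in both without KO air 1 or without KO nicotine 4. Col1a1, a chain of type I collagen, had 0.37 ± 0.25 and -0.18 ± 0.25. No gene passed the test of the interaction, the difference between the 2 effects (0%, lowest edgeR adjusted p = 0.230), and 4.43% of genes had an unadjusted p under 0.05 there. DESeq2 called 8.

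Among the 45 genes higher in both genotypes by unadjusted p, the WT log2 fold changes had a median of 0.64 and the KO values a median of 0.49. Among the 44 lower genes these medians were -0.61 and -0.50. The choice of these genes used both effects, so their likeness is a description. Within the 45, 8 had all 6 nicotine libraries above all 6 air libraries, and within the 44, 3 had all 6 below. The number of higher genes ranged from 24 without KO air 7 to 137 without KO nicotine 5, and that of lower genes from 13 to 183 without these same libraries. It was 136 higher and 104 lower without WT air 8. The adipocyte covariate gave 24 higher and 24 lower.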

How the data were processed

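Thoracic aorta RNA of 12 mouse libraries, 3 per group, was measured by RNA-seq. The authors deposited whole-number read counts per gene, made with HTSeq on mm9, per the submitters' processing notes. The sources used here do not give the aligner, the annotation or versions. The table lists 27933 genes, and 14621 were left after edgeR's low-count filter. edgeR 4.0.16 in R 4.3.3, with TMM scaling and a robust quasi-likelihood fit of 4 group means, gave log2 fold changes, with standard errors computed as the log2 fold change divided by the square root of F, and Benjamini-Hochberg adjusted p-values (threshold 0.05) for the average, each genotype and the interaction. Library totals of 10240031 to 12628323 counts gave a median standard error of 0.16 for the average. Counts of replicate pairs differed beyond sampling noise (chi-square per degree of freedom of 8.79 or more). The script was tested on simulated counts.

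Genes were named by a rule: same sign in both genotypes, at least 5 CPM in the higher exposure, the 12 smallest p-values of the average per direction, up to 4 members of each of 44 gene lists with an unadjusted p under 0.05, and a few named in advance. Alb, Atp2b1, Atp5b, Cd74, Cnn2, Col1a1, Dlc1, Fkbp5, Has2, Kcna5, Kcnmb1, Myl9, Pcdh19, Pvalb, S1pr1, Ttn and Uap1 fall outside it and were chosen after their values were seen. Not every gene picked by this rule is reported here. The members and lists were chosen with earlier results of these data known. Promoter windows of 300 bases were RefSeq's for GRCm38.p6, matched by symbol for 10866 tested genes, and share no coordinates with the counts. Alternatives were DESeq2 1.42.0, limma voom 3.58.1, a surrogate variable from sva 3.50.0, other scalings and filters, marker scores as covariates and leaving out each library. The authors' own comparison tables were not used.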

Additional observations from a re-analysis of the deposited data

Results flagged for a closer look

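A pair of list scores, each the mean log2 CPM over a list's tested genes, went opposite ways in the 2 genotypes, with every WT nicotine library above the WT air mean and every KO nicotine library below the KO air mean. The difference between genotypes was not tested. For 12 fibroblast markers, which mark the matrix-producing cells of the adventitia, nicotine minus air was 0.274 in WT and -0.119 in KO. For 14 cell cycle genes it was 0.264 in WT and -0.17 in KO. With 1 library left out the WT fibroblast value ranged from 0.174 (without WT nicotine 6) to 0.366 (without WT air 9). The other values rested on single libraries. The fibroblast value in KO was -0.03 without KO air 1 and -0.019 without KO nicotine 4. The cell cycle value was -0.002 in KO without KO air 7 and 0.077 in WT without WT nicotine 6.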

How the results depend on the processing

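Over 26 alternatives, 12 of them leaving out 1 library, 91 of 103 named genes kept the sign of their average log2 fold change. No paired analysis was possible because each library number occurs once and the groups share none. The smooth muscle contractile score as a covariate was chosen after seeing the data and overlaps its own list. It reversed Acta2 (0.028), Myh11 (0.079), Gucy1b3 (0.12), Pde3a (0.068), Adipoq (-0.23), Lpl (-0.23), Cfd (-0.045), Cidec (-0.076), Cyp2e1 (-0.13), Dll4 (-0.16), Tiparp (-0.016) and Ucp1 (-0.40). Ucp1 was -0.24 with the adipocyte score and -0.0065 (without WT air 9) to 0.63 (without WT air 8) when 1 library was left out.

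Genes passing the adjusted test of the average, 0 with edgeR, were 66 higher and 25 lower with DESeq2, 6 higher with no filter on low counts and 1 higher with a surrogate variable. Leaving out 1 library gave 0 to 17 higher and 0 to 21 lower. Beside WT air 8, these were 4 higher without WT air 10, 3 higher without WT nicotine 12, and 1 higher and 2 lower without KO nicotine 5. The interaction had 8 genes with DESeq2, 1 with no filter, and 0 to 1 with a library left out. Genes with an unadjusted p under 0.05 in both genotypes were 75 higher with DESeq2. The adipocyte score gave 24 higher and 24 lower, the skeletal muscle score 27 and 19, the contractile score 26 higher, and the immediate early score 88 lower. Leaving out 1 library gave 24 to 137 higher and 13 to 183 lower. Those of opposite signs were 9 with the immediate early score, 5 with the contractile score, and 8 (without KO air 7) to 44 (without KO nicotine 4) with a library left out. At an unadjusted p under 0.05 a minimum fold of 1.2 left 564 of the 1600 genes. The cause of these shifts was not tested.

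With 3 libraries a group and a median standard error of 0.22 within a genotype against 0.16 for the average, small differences within a genotype were not detectable at this depth and number.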

Other observations

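Of 19 tested members of the antioxidant list 11 were above 0 in both genotypes and 6 had an unadjusted p under 0.05 on the higher side (30.4% and 5.62% of all genes), with a median of 0.21. Leaving out 1 library moved the 6 between 2 and 8. Hmox1, heme oxygenase 1, stood at 10.5, 6.34 and 8.95 CPM on air against 15.1, 17.0 and 25.1 on nicotine among WT libraries, and at 6.80, 7.18 and 12.9 on air against 17.4, 14.8 and 7.20 on nicotine among KO libraries, and its effects were 1.15 ± 0.35 in WT and 0.55 ± 0.35 in KO. Nicotine and air were apart in WT and overlapped in KO through library 5. Gsta3, a glutathione transferase, averaged 1.32 ± 0.52 and was high in WT nicotine 6 and KO nicotine 3. Gpx3, a secreted glutathione peroxidase, averaged 1.01 ± 0.36 with WT air 8 inside the nicotine range.

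Among transforming growth factor beta and BMP genes, 12 of 21 were above 0 in both genotypes, 5 had an unadjusted p under 0.05 on the higher side and 1 on the lower side (30.4%, 5.62% and 5.33% of all genes). The matricellular gene Ctgf had effects of 0.74 ± 0.25 in WT and 0.39 ± 0.25 in KO. Nfil3, a repressor that acts within the circadian clock, stood at 24.4, 6.18 and 8.23 CPM on air against 45.8, 46.0 and 40.9 on nicotine among WT libraries, and at 8.93, 4.19 and 4.29 on air against 10.2, 11.8 and 10.8 on nicotine among KO libraries. Its exposures were apart within both genotypes, with effects of 1.78 ± 0.44 and 0.91 ± 0.47. Of the 19 clock genes 5 were above 0 and 8 below 0 in both genotypes, near the 30.4% and 29.4% of all genes. The matrix metalloprotease gene Mmp19 averaged 0.61 ± 0.19, and 0.39 without KO nicotine 3. Of 16 tested members of the matrix protease list 5 were above 0 and 1 below 0 in both genotypes (30.4% and 29.4% of all genes). Opposite signs were seen for 10 (40.2% of all genes), 3 had an unadjusted p under 0.05 on the higher side (5.62%), and the median was 0.03. Ces1f, a carboxylesterase of liver and fat, averaged 1.40 ± 0.44.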
